A study of Mus musculus with 8 samples.

Results

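Oligo4 is a cluster of mature oligodendrocytes that the study defined by single-cell RNA sequencing of the mouse brain. Its 1062 cells, of 12581 oligodendrocytes in all, were taken by the cluster number that the authors deposited for each cell. Of these cells, 653 came from FireΔ/Δ mice (KO) and 409 from Fire+/+ mice (WT), and the question was how the genotypes differ within the cluster. The Fire deletion removes an enhancer in an intron of Csf1r, the gene of a receptor that microglia need to survive, so KO mice lack microglia while other brain macrophages are present. The controls were wild-type animals from crosses of mice that carry the deletion, on a mixed CBA:C57Bl6J background, and all animals were female. Mice 1 (WT) and 3 (KO) were 1 month and 18 days old, and mice 4 (WT) and 6 (KO) were 1 month and 16 days old. Each mouse gave a library of hippocampus and a library labelled cortex, which according to the protocol was the rest of the left hemisphere. The 8 libraries fall into 4 batches, named by the chip they were run on, and each batch pairs a WT with a KO library of the same tissue. In the WT libraries, Oligo4 held 149 cells in mouse 1 hippocampus, 38 in mouse 1 cortex, 125 in mouse 4 hippocampus and 97 in mouse 4 cortex. In the KO libraries it held 266 cells in mouse 3 hippocampus, 47 in mouse 3 cortex, 268 in mouse 6 hippocampus and 72 in mouse 6 cortex, so the cortex values of mice 1 and 3 rest on the fewest cells.

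Mature oligodendrocytes wrap axons in myelin and keep that membrane supplied with lipid and protein. In diseased white matter they can take up a reactive state that is marked by complement component C4b, the secreted protease inhibitor Serpina3n and the iron carrier transferrin. Cytokines that act through the receptor subunit gp130 activate the transcription factor STAT3, whose known targets include Socs3, an inhibitor that feeds back on the pathway, and the transcription factor Cebpd. Oligodendrocytes also make colony-stimulating factor 1 (Csf1), a ligand of the receptor whose enhancer is deleted here.

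Oligo4 made up 2.83 to 11.9% of the oligodendrocytes of WT and 4.38 to 13.9% of those of KO libraries (two-sided exact permutation p = 0.667 over mice). Median depth ranged from 10956.5 to 16160 UMIs (counted transcript molecules) per Oligo4 cell across libraries, and the ranges of the genotypes overlapped. The 8 oligodendrocyte markers summed to 773 to 913 normalized UMIs per cell in WT and 794 to 841 in KO libraries, so the cells carried the identity they were labelled with. Csf1r, the targeted gene, had a UMI in 4.03, 10.5, 8.8 and 9.28% of Oligo4 cells in the WT libraries and in 0, 0, 0.373 and 0% in the KO libraries. P2ry12 and Tmem119, which define microglia, had no UMI in any KO library. Over the 17 microglial markers the sum was 0.505 to 1.02 normalized UMIs per cell in WT and 0.0822 to 0.21 in KO libraries. Oligo4 was drawn on the expression values that are compared here, and cells rich in these transcripts could also be placed in another cluster, Oligo1. Of the 1645 cells in a finer deposited cluster, numbered 2, 1158 lay in Oligo1 and 236 in Oligo4. That finer cluster took 28.4 to 43.2% of the Oligo4 cells of KO libraries and 0 to 0.8% of those of WT libraries, a split given as a description, since the clustering used these genes.

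For each gene the log2 values of the cells were averaged per library and then per mouse, and limma compared 2 KO with 2 WT mice, with the pair of mice that share batches as a block. Of 9381 genes tested, 58 (0.618%) passed an adjusted p of 0.05. Among them 45 (0.48% of those tested) were higher and 13 (0.139%) lower in KO mice, and 729 genes (7.77%) had an unadjusted p under 0.05. Of the 58, 53 differed in the same direction in all 4 batches, and 39 had no overlap between the 4 WT and the 4 KO libraries. Over all genes tested, called or not, 4605 were higher and 4776 lower in KO mice. Of these genes, 7.58% were higher and 8.87% lower in KO libraries in all 4 batches. The KO libraries lay wholly above the WT libraries for 1.77% of genes and wholly below for 1.8%. With 2 mice per genotype there is little to estimate each gene's own spread from. Most of the 33.05 degrees of freedom of the main fit came from the spread pooled over genes. Its standard errors and p-values therefore rest largely on that pooled spread and not on a gene's own spread between mice. The calls were set beside 3 other fits, namely limma with a robust prior, limma on the 8 libraries and edgeR on summed UMIs. In all 4 fits 40 genes were called, 34 of them higher and 6 lower in KO mice. All 4 use the same mice and take the pairs or batches as blocks, so they are not independent checks. Limma without the block called 9 genes higher and 0 lower. Without the hippocampus batch of mice 1 and 3, only C4b and Serpina3n passed, and without the cortex batch of mice 4 and 6, 12 genes passed as higher and 3 as lower. In the plot of difference against level, C4b and Neat1 stand apart from the other genes, and most called genes have a low mean level.

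**Figure D1:**
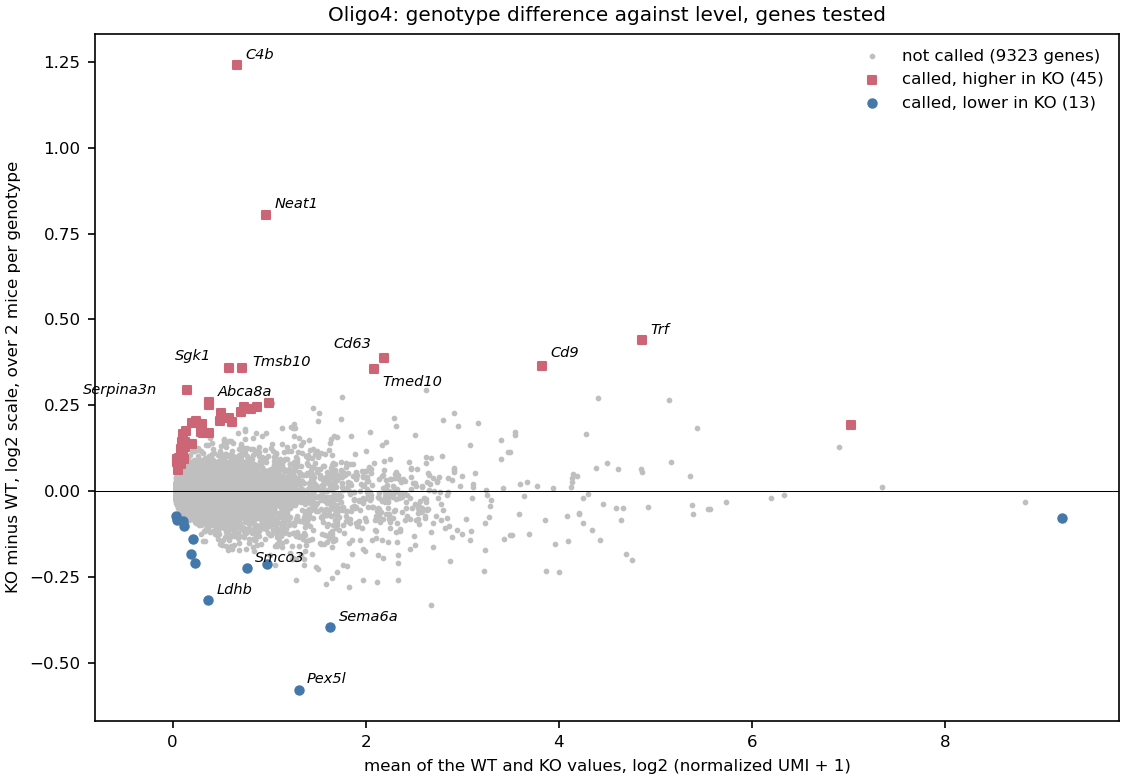
KO minus WT difference (log2 scale, vertical axis) against the mean level (log2 of the normalized UMI count plus 1, horizontal axis) for the 9381 genes tested in Oligo4. Red squares are the 45 genes called higher and blue circles the 13 called lower in KO mice at an adjusted p under 0.05 by limma, and C4b and Pex5l mark the ends of the range.

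C4b, which encodes the complement component that C1 and the lectin pathway cleave, had the largest difference in the cluster. Its mean log2 value was 0.0139, 0.04, 0.0795 and 0.0689 in the WT libraries of mouse 1 hippocampus and cortex and mouse 4 hippocampus and cortex. In the KO libraries of mouse 3 hippocampus and cortex and mouse 6 hippocampus and cortex it was 1.59, 1.18, 1.04 and 1.36. Every KO library was therefore far above every WT library, in both tissues. The difference was 1.24 ± 0.05 (SE, 2 mice per genotype, limma adjusted p = 3.63e-19), and on summed UMIs it was 5.64 on the log2 scale (edgeR adjusted p = 6.36e-24). A C4b UMI was found in 2.01 to 9.6% of WT and 51.1 to 70.7% of KO cells per library. After thinning every cell to 5000 UMIs these ranges were 1.34 to 5.26% and 42.2 to 59.4%, so the gap remained at equal depth.

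Serpina3n, a secreted inhibitor of serine proteases, rose in fewer cells. Its mean log2 value was 0.0046, 0, 0.00625 and 0 in the WT libraries and 0.357, 0.213, 0.335 and 0.286 in the KO libraries, in the same order. The groups did not overlap, and the difference was 0.30 ± 0.03 (SE, limma adjusted p = 1.08e-09). A Serpina3n UMI was present in 1, 0, 1 and 0 cells of the WT libraries, where 0 of 38 cells allows a share of up to 7.89% and 0 of 97 cells up to 3.09%, counted as 3 cells. In KO libraries 19.1 to 27.4% of cells had one. Cells with UMIs of both genes were absent from all 4 WT libraries and made up 23.7, 19.1, 20.9 and 20.8% of KO cells. The intervals in the plot of these shares are exact (Clopper-Pearson) and cover counting error only. With 2 against 2 mice a two-sided exact permutation test can give no p below 0.33, and that was the p for the shares of C4b, of Serpina3n and of both.

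**Figure D2:**
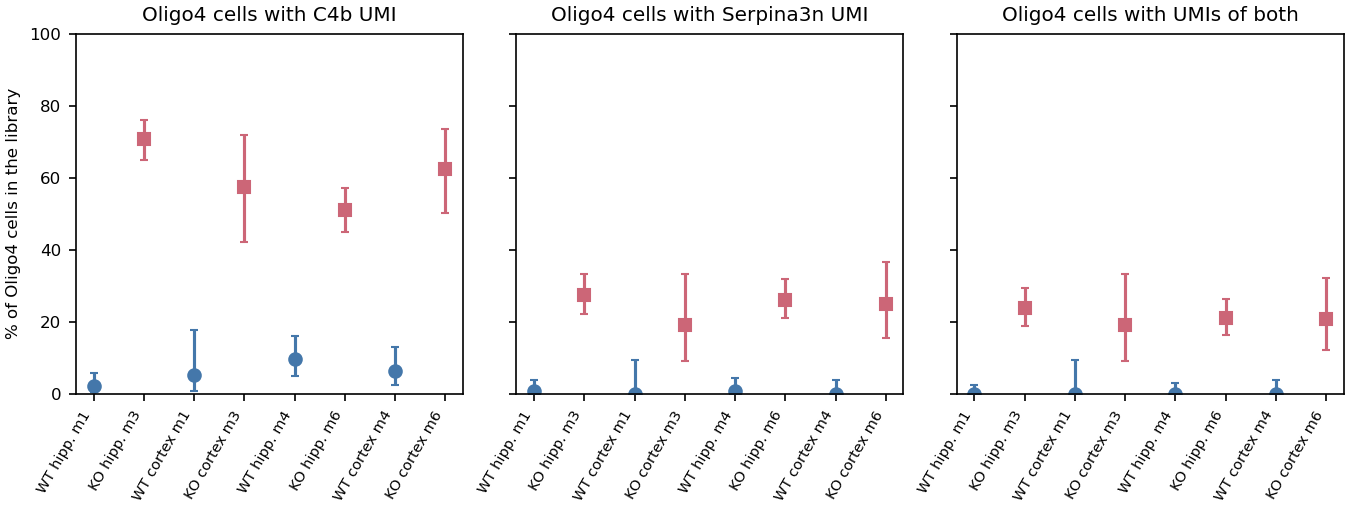
Percent of Oligo4 cells in each library with a UMI of C4b, of Serpina3n, or of both (vertical axis), for the 4 WT (circles) and 4 KO (squares) libraries. Bars are 95% exact binomial intervals, and the KO intervals for C4b, from 51.1 to 70.7% at their points, lie above all WT intervals.

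The C4b difference was not limited to the cells in which both transcripts were detected. Without them it was 0.93 in Oligo4, and without the cells of finer cluster 2 it was 0.57, called by limma in both cases. Serpina3n was 0.04 higher in KO mice without the double-positive cells and 0.08 without finer cluster 2. The first value is low by construction, since the cells were removed for their Serpina3n UMIs. In the KO hippocampus and cortex of mouse 3, 63 of 73 and 9 of 9 cells with a Serpina3n UMI were double-positive. In those of mouse 6, 56 of 70 and 15 of 18 were. Over the 58 called genes, the median ratio of the difference to that in all cells was 0.904 without the double-positive cells, with 58 in the same direction, although only 4 of them still passed. The fit had 11.56 degrees of freedom there against 33.05 with all cells, and median standard errors of 0.0334 and 0.0329. Without finer cluster 2 the median ratio was 0.756 and 30 of the 58 passed. Without any cell holding a C4b UMI, C4b is at 0 by construction. Of the other genes 55 kept their direction, Anxa2 and Malat1 did not, and 11 passed. The fits without finer cluster 2 and without C4b cells had 9381 degrees of freedom each. Their counts cannot be set against the 4 that passed without the double-positive cells.

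Of 10 genes that the study names for Oligo1, 7 were tested in Oligo4, and 5 were called, with a median of 0.13 against -0.000669 over all genes tested. The study chose that list on these libraries, and 3 of the 7 (Serpina3n, Flnc and Emp3) passed the detection filter only through the KO libraries, so neither the count nor the median is independent evidence of direction. Besides C4b and Serpina3n, the called members were Trf, Anxa2 and Emp3. Trf, the transferrin gene and an abundant product of oligodendrocytes, was 4.68, 4.95, 4.47 and 4.46 in WT and 5.3, 5.39, 4.73 and 4.9 in KO libraries. The KO library was higher in each of the 4 batches, by 0.26 to 0.62, although the groups overlapped, and the difference was 0.44 ± 0.08 (SE, limma adjusted p = 0.00177). Anxa2, a calcium-dependent membrane-binding annexin, had values of 0.0969, 0.0646, 0.0582 and 0.0495 in WT and 0.291, 0.201, 0.197 and 0.0971 in KO libraries, which barely did not overlap. It rose by 0.13 ± 0.02 (limma adjusted p = 0.00202), and without the cells that held a C4b UMI it was 0.00 (-0.0044) lower. Emp3, a small membrane protein of the PMP22 family, rose by 0.08 ± 0.01 (adjusted p = 6.96e-04), from 0 to 2.06% of cells with a UMI per WT library to 4.26 to 15% per KO library. Without the cells of finer cluster 2 the Trf difference was 0.24 and that of Emp3 0.02, and without the cells that held a C4b UMI they were 0.18 and 0.02, with no call for either gene.

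**Figure D3:**
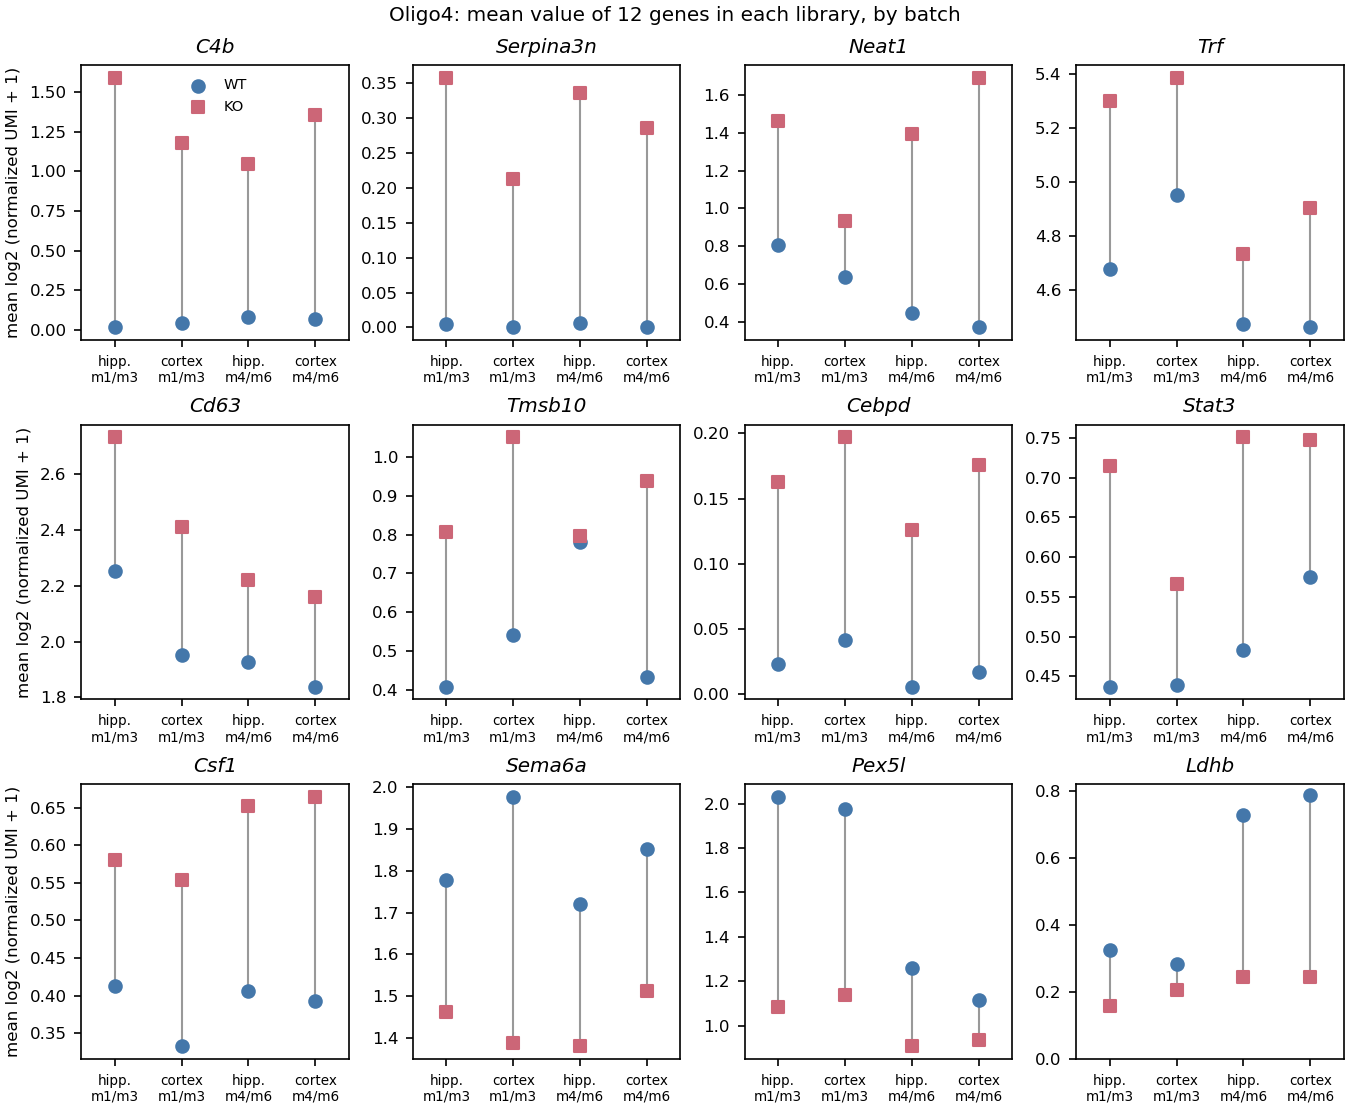
Mean log2 value (normalized UMI count plus 1) of 12 genes over the Oligo4 cells of each library, with the WT (circle) and KO (square) library of a batch joined by a line and the 4 batches along the horizontal axis (m1, m4 are WT and m3, m6 KO mice). The vertical axes differ between panels and do not all start at 0, and for each of the 12 genes the KO library lies on the same side of the WT library in all 4 batches.

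Of 16 genes of the gp130 and STAT3 response, 10 were tested, and 4 of these were called higher in KO mice. Over all genes tested, 0.48% were called higher. Socs3, Cebpd, Junb and Gfap passed the detection filter only through the KO libraries, so their higher values are favoured by the filter, and the signs over the list are not read. Of the 45 genes called higher, 10 passed in that way, and of the 13 called lower, 2 passed only through the WT libraries. The 10 were Socs3, Cebpd, Junb, Serpina3n, Emp3, Piezo2, Aldh1l2, Tmem176a, Gm48678 and Cadps2. Over all 9381 genes tested, 163 passed only through the KO and 137 only through the WT libraries. Stat3, the transcription factor itself, was 0.436, 0.439, 0.483 and 0.574 in WT and 0.715, 0.566, 0.751 and 0.748 in KO libraries. It was higher in each batch, by 0.13 to 0.28, and the difference was 0.21 ± 0.04 (SE, limma adjusted p = 0.00688). Cebpd, a transcription factor of the acute-phase response, was 0.0234, 0.0413, 0.00562 and 0.0175 in WT and 0.163, 0.197, 0.126 and 0.175 in KO libraries. The 4 KO libraries were alike and all above the WT libraries, at a difference of 0.14 ± 0.02 (limma adjusted p = 1.64e-05). Socs3, the feedback inhibitor, had a UMI in 0, 0, 1.6 and 0% of WT cells and in 12.8, 14.9, 7.09 and 6.94% of KO cells. Its difference of 0.09 ± 0.02 passed in the main fit (adjusted p = 0.00167) and not with the robust prior (adjusted p = 0.083). Junb, an immediate early transcription factor, rose by 0.08 ± 0.02 (adjusted p = 0.00334). Osmr, the oncostatin M receptor, was not tested and had a UMI in 0% of WT cells and at most 2.13% of KO cells per library. The differences of Stat3, Cebpd, Socs3 and Junb were 0.09, 0.04, 0.03 and 0.03 without the cells of finer cluster 2, and none was then called.

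The start regions of Socs3 and Serpina3n are shown because both genes rose in all 4 KO libraries and both have a window in the RefSeq table. Each line gives the 250 bases before the start annotated by RefSeq in GRCm38.p6, 5′ to 3′ on the gene's strand. The window is chr11:117969367-117969616 (minus strand) for Socs3 and chr12:104406458-104406707 (plus strand) for Serpina3n. The annotation used for gene positions gives Socs3 as chr11:117966079-117970047, so by that annotation its window lies inside the gene and not before its start. Capitals mark the STAT motif TTCNNNGAA, which reads the same on both strands.
Socs3: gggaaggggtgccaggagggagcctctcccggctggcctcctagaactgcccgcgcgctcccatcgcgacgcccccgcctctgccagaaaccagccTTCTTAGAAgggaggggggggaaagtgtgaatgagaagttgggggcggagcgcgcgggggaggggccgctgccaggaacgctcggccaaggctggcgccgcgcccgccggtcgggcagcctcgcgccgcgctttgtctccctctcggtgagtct
Serpina3n: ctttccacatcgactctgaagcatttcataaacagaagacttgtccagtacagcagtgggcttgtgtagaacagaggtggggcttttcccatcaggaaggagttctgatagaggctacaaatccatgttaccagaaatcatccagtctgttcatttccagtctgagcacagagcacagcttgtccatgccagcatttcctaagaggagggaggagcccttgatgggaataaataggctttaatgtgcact
The Socs3 window holds the motif once, as TTCTTAGAA, ending 145 bases before the RefSeq start, and the Serpina3n window does not contain those letters. Of the 45 genes called higher, 31 had a window and 2 held the motif, Socs3 and Sgk1, and 7.02% of all 32851 windows did. A match is a sequence of letters and not a measured binding site.

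Of the 12 core myelin genes, 5 were higher and 7 lower, with a median of -0.04, and only Cd9 was called. Cd9, a tetraspanin of the myelin membrane, was 3.76, 3.84, 3.46 and 3.5 in WT and 4.02, 4.13, 3.83 and 4.04 in KO libraries, a difference of 0.37 ± 0.09 (SE, limma adjusted p = 0.0444). The KO library was higher in every batch, and the groups overlapped only between the WT cortex library of mouse 1 and the KO hippocampus library of mouse 6. Cd63, a tetraspanin of late endosomes and lysosomes, was 2.25, 1.95, 1.93 and 1.84 in WT and 2.73, 2.41, 2.22 and 2.16 in KO libraries. It rose by 0.39 ± 0.08 (adjusted p = 0.00689) and was the one called of 22 tested lysosomal genes, of which 14 were higher. Lamp2, a lysosomal membrane protein, was 0.18 ± 0.06 higher and not called (adjusted p = 0.223), although its libraries did not overlap. Tmed10, a cargo receptor between endoplasmic reticulum and Golgi, was higher by 0.33 to 0.37 in each of the 4 batches. Its difference of 0.36 ± 0.08 was called (adjusted p = 0.0116).

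At 0.618% of all genes called, few calls or none would fall in lists of this size, so the counts of lipid genes are a description. None of the 24 cholesterol synthesis genes tested was called, with 17 higher, 7 lower and a median of 0.01, and 3 reached an unadjusted p under 0.05. Hsd17b7, an enzyme of the later cholesterol pathway, had the largest difference of that list, 0.12 ± 0.03 (limma adjusted p = 0.152). None of 16 fatty acid synthesis genes was called, and the desaturase Scd1 was 0.18 ± 0.05 lower without passing (adjusted p = 0.135). Abca8a, a lipid transporter of the ABC family that is in neither list, rose. It was 0.269, 0.358, 0.22 and 0.155 in WT and 0.662, 0.388, 0.562 and 0.428 in KO libraries, a difference of 0.26 ± 0.04 (adjusted p = 1.52e-04). The gap was small, 0.03, in the cortex of mice 1 and 3, and 0.27 to 0.39 in the other batches.

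Of 15 tested genes of the TGF-beta pathway, through which cells of the brain regulate growth and differentiation, 4 were higher and 11 lower, and none was called. Their median was -0.01 and 1 had an unadjusted p under 0.05, and Smad2, which carries the receptor's signal to the nucleus, was 0.08 ± 0.03 lower (limma adjusted p = 0.237). Likewise, none of 12 oligodendrocyte transcription factors was called, with 8 higher and 4 lower. Nkx6-2, a homeobox factor of mature oligodendrocytes, was 0.16 ± 0.08 higher (adjusted p = 0.682), although its 4 KO libraries all lay above the WT libraries. Of 80 cytosolic ribosomal protein genes, 61 were lower and none was called, with a median of -0.05. Over all 9381 genes tested, 4776 were lower.

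Among 8 tested ligands for microglia, Csf1 was called. Its values were 0.413, 0.332, 0.407 and 0.392 in WT and 0.58, 0.553, 0.653 and 0.664 in KO libraries. The difference was 0.23 ± 0.04 (SE, limma adjusted p = 0.00177), and a UMI was found in 43.6 to 50.4% of WT and 51.1 to 66.7% of KO cells per library. The Csf1 difference was 0.22 without the double-positive cells and 0.17 without any cell holding a C4b UMI, and neither of these was called. The other ligands split into 3 higher and 4 lower. C1qa and C1qb, subunits of the C1q recognition molecule made by microglia, were lower in KO libraries. C1qa had a UMI in 14.8, 5.26, 8.8 and 13.4% of WT cells and in 0, 0, 0.373 and 0% of KO cells, and C1qb in 10.1, 2.63, 9.6 and 24.7% against 0, 0, 0.373 and 0%. Both were called (limma adjusted p = 0.00177 for each) and both are microglial markers, although the cells were assigned to oligodendrocytes. How far RNA of other cells contributes to them was not tested.

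Other called genes belong to several programmes. Tmsb10, a thymosin that binds monomeric actin, was 0.407, 0.54, 0.782 and 0.433 in WT and 0.806, 1.05, 0.796 and 0.94 in KO libraries. The KO libraries were higher by 0.40 to 0.51 in 3 batches and by 0.01 in the hippocampus of mice 4 and 6, and the difference was 0.36 ± 0.05 (limma adjusted p = 3.49e-05). It was 0.34 without any cell holding a C4b UMI and still called, in a fit whose p-values rest on the pooled spread alone. Of 21 actin genes tested, 14 were higher and 2 called, and Tmsb4x was 0.27 ± 0.07 higher without passing (adjusted p = 0.116). Ifi27, an interferon-induced mitochondrial protein, rose by 0.24 ± 0.05 (adjusted p = 0.00334), with 4 of 4 tested interferon genes higher and 1 called. Most interferon genes of the list (17 of 21) were below the detection filter. H2-D1, an MHC class I heavy chain, was 0.06 ± 0.02 higher and missed the threshold (adjusted p = 0.0548).

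The genes called lower were led by Pex5l and Sema6a. Sema6a, a transmembrane semaphorin of oligodendrocytes, was 1.78, 1.98, 1.72 and 1.85 in WT and 1.46, 1.39, 1.38 and 1.51 in KO libraries. Every KO library was below every WT library, and Sema6a fell by 0.40 ± 0.07 (SE, limma adjusted p = 7.75e-04), also in the 3 other fits. Smco3, a small coiled-coil membrane protein, fell by 0.22 ± 0.05 (adjusted p = 0.0154), and Fbn2, which encodes fibrillin 2, by 0.14 ± 0.03 (adjusted p = 0.0137). The transcript 9330117O12Rik had no position in the annotation used. It was 0.283, 0.269, 0.364 and 0.2 in WT and 0.107, 0.0919, 0.111 and 0.0734 in KO libraries and fell by 0.18 ± 0.03 (adjusted p = 2.7e-04). It was also lower in Oligo2 and Oligo3, by 0.16 and 0.19. Isoc1, March8 and Arc fell by 0.10, 0.21 and 0.09 in the main fit, and each missed the threshold in at least 1 of the other fits. Gjc3, a gap junction protein of glia, was 2.8, 2.73, 2.88 and 2.95 in WT and 2.41, 2.29, 2.64 and 2.69 in KO libraries. Its libraries did not overlap, and at -0.33 ± 0.09 it missed the threshold in the main fit (adjusted p = 0.0702) and passed in the 8-library fit (adjusted p = 0.022). Sema6a, Fbn2 and Isoc1, with Piezo2 among the genes called higher, lie on chromosome 18, the chromosome of Csf1r, which held 4 of the 58 called and 246 of the 9381 tested genes. Piezo2, a mechanically gated ion channel, had a UMI in 0.671, 2.63, 5.6 and 2.06% of WT cells and in 25.2, 14.9, 19.4 and 23.6% of KO cells, and rose by 0.17 ± 0.02 (adjusted p = 3.76e-06). It passed the detection filter only through the KO libraries, which favours a higher value, and was picked out after its value was seen. None of 16 tested neighbours of Csf1r was called, 8 being higher and 8 lower.

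Some genes differed by unequal amounts in the pairs of mice. Neat1, a nuclear long non-coding RNA, was 0.809, 0.635, 0.444 and 0.37 in WT and 1.46, 0.932, 1.39 and 1.69 in KO libraries. Its batch differences were 0.66 and 0.30 in mice 1 and 3 but 0.95 and 1.32 in mice 4 and 6. The difference of 0.81 ± 0.08 passed in the main fit (limma adjusted p = 1.78e-08) and not with the robust prior, which widens the spread of such genes (adjusted p = 0.826). Every KO library was nevertheless above every WT library, and Neat1 was also called in the 8-library fit (adjusted p = 0.00303) and without the block (adjusted p = 0.0291). Pex5l, which regulates the trafficking of HCN channels, fell by 0.95 and 0.83 in mice 1 and 3 but by 0.35 and 0.18 in mice 4 and 6. Its difference of -0.58 ± 0.08 (adjusted p = 3.82e-05) was likewise not called with the robust prior (adjusted p = 0.833). Ldhb, the lactate dehydrogenase subunit of oxidative tissues, fell by 0.48 and 0.54 in mice 4 and 6 and by 0.17 and 0.08 in mice 1 and 3. It was not called with the robust prior (adjusted p = 0.847). Sgk1, a kinase induced by glucocorticoids, was 0.65 and 0.86 higher in mice 4 and 6 and 0.02 higher and 0.10 lower in mice 1 and 3. Of the 15 tested glucocorticoid response genes, Sgk1 was the one called. It passed by edgeR but not with the robust prior (limma adjusted p = 0.939) or in the 8-library fit (adjusted p = 0.251). Bfsp2, a lens filament protein, fell by 0.31 and 0.51 in mice 1 and 3, and by 0.01 and 0.00 (-0.00339) in mice 4 and 6, where its level was already low. Bfsp2 likewise passed by edgeR but not with the robust prior (limma adjusted p = 0.932) or in the 8-library fit (adjusted p = 0.215). Ptgds, the prostaglandin D synthase of mature oligodendrocytes, and the abundant nuclear RNA Malat1 were called in the main fit, at 0.19 and -0.08, and in none of the 3 others. Malat1 was picked out after its value was seen, and its difference turned to 0.00284 without KO mouse 6 and to 0.0231 without finer cluster 2. The glycolysis list held 19 tested genes, and Ldhb was the one called, while Slc16a1, the lactate transporter, was 0.16 ± 0.05 lower (adjusted p = 0.204).

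Some blood and vascular transcripts were called in the main fit. Hbb-bs and Hba-a1, globins of erythrocytes, were 0.14 ± 0.03 and 0.08 ± 0.02 higher (limma adjusted p = 0.0246 and 0.0309). Over the 6 erythrocyte markers the summed level was 2.35 to 3.05 normalized UMIs per cell in WT and 3.2 to 20.8 in KO libraries. Ly6a was 0.17 ± 0.04 higher (adjusted p = 0.0138), with overlapping libraries and a difference of -0.04 in the hippocampus of mice 4 and 6. None of the 3 genes passed in the 8-library fit (adjusted p = 0.161, 0.0865 and 0.0919 for Hbb-bs, Hba-a1 and Ly6a). All 3 passed with the robust prior (limma adjusted p = 0.0163, 0.0345 and 0.0116) and with edgeR. The edgeR differences of Hbb-bs and Hba-a1 were 5.32 and 5.99 on the log2 scale (adjusted p = 1.62e-29 and 1.07e-27). Hbb-bs held 3212 and 1972 UMIs in the KO and 33 and 32 in the WT hippocampus libraries. In the cortex libraries it held 13 and 51 in KO and 10 and 12 in WT. The 10 endothelial markers summed to 1.19 to 1.64 in WT and 1.7 to 4.01 in KO libraries. Cldn5, Flt1 and Pecam1, which define endothelium, had a UMI in at most 0.671% of WT cells and at most 2.78% of KO cells per library. The 10 border macrophage markers summed to at most 0.00968 in WT and 0.044 in KO libraries. The part of these transcripts in the results above was not tested.

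**Figure D4:**
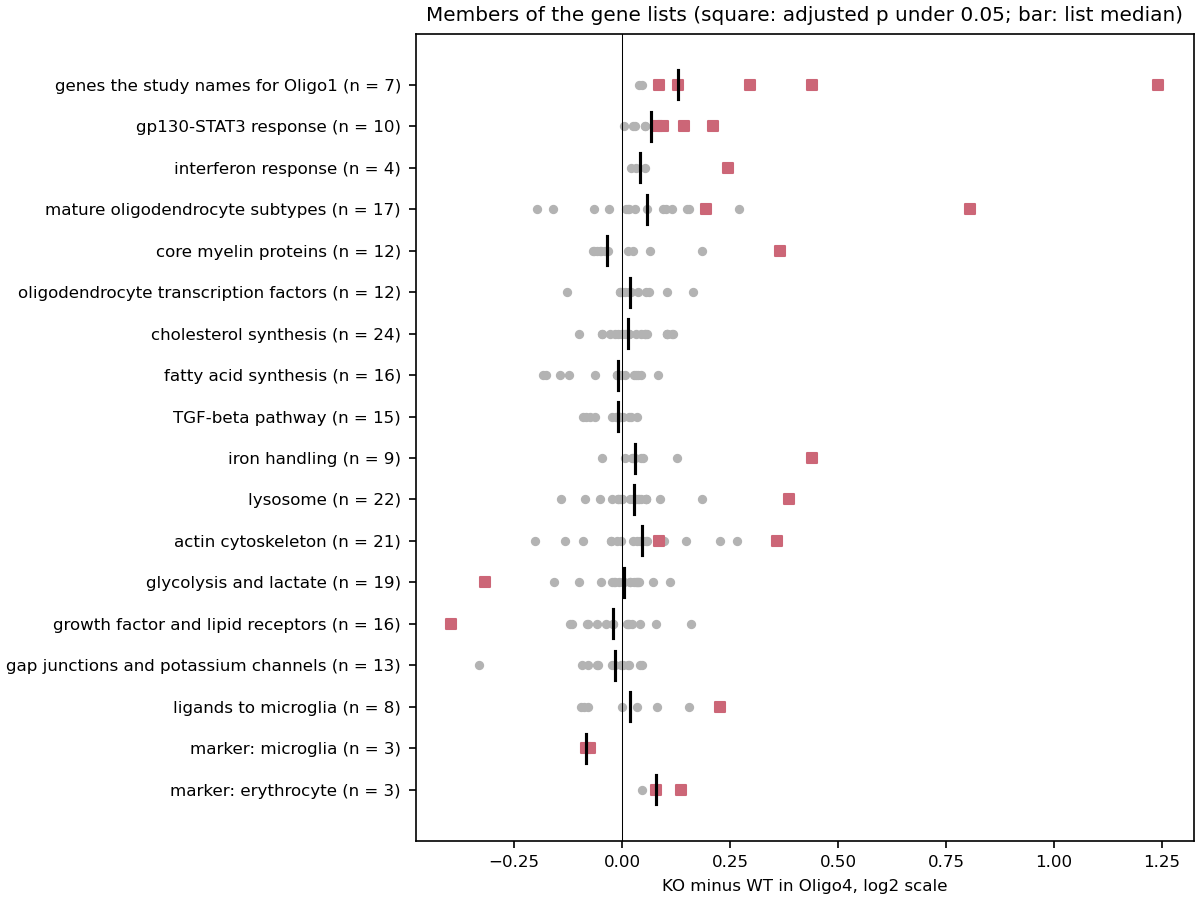
KO minus WT difference in Oligo4 (log2 scale, horizontal axis) of every tested member of 18 gene lists (rows, with the number tested). Squares are members called at an adjusted p under 0.05 by limma, grey circles the others and vertical bars the list medians, which reach 0.13 for the genes the study names for Oligo1 and -0.08 for the microglial markers.

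The called genes were set beside the other clusters that hold both genotypes, which come from the same mice. At an adjusted p of 0.05, 12 genes were higher and 3 lower in Oligo2 (0.128 and 0.032% of genes tested), and 4 were higher and 3 lower in Oligo3 (0.0426 and 0.032%). Of the 58, 14 were called in Oligo2 and 7 in Oligo3, among them C4b, Serpina3n, Cebpd, C1qa, C1qb and 9330117O12Rik in both. The fits of the clusters do not call alike, so these counts do not show which genes are particular to Oligo4. Isoc1, at -0.068 ± 0.012 in Oligo2, was not called (limma adjusted p = 0.121). At -0.102 ± 0.023 in Oligo4 it was called (limma adjusted p = 0.0178). C4b was 1.05 higher in Oligo2, 0.47 in Oligo3 and 1.24 in Oligo4, and Serpina3n 0.47, 0.09 and 0.30. Trf was 0.12 and 0.08 higher in Oligo2 and Oligo3 against 0.44 in Oligo4, and Tmsb10 0.12 and 0.06 against 0.36. Sema6a was 0.11 and 0.12 lower against 0.40 in Oligo4.

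The difference between clusters was tested directly, as each mouse's Oligo4 value minus the mean of its Oligo2 and Oligo3 values. No gene passed (0% of 9381), 631 (6.73%) reached an unadjusted p under 0.05, and the smallest adjusted p was 0.544 (limma). By size, C4b (0.48, interval 0.35 to 0.61), Trf (0.34, 0.21 to 0.46) and Tmsb10 (0.27, 0.16 to 0.38) led the genes that were more raised in Oligo4. Pex5l (-0.28, interval -0.53 to -0.03), Sema6a (-0.28, -0.36 to -0.20) and Gjc3 (-0.25, -0.38 to -0.12) led those more lowered, with adjusted p of 0.544 to 0.721 for the 6. These intervals of 95% are not adjusted for the number of genes. The call depended on the scale: on log2 of the mean normalized count plus 0.1, 24 genes were higher and 4 lower, and plus 1, 14 and 3, with C4b and Tmsb10 in both. Without the hippocampus batch of mice 4 and 6, C4b alone passed.

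**Figure D5:**
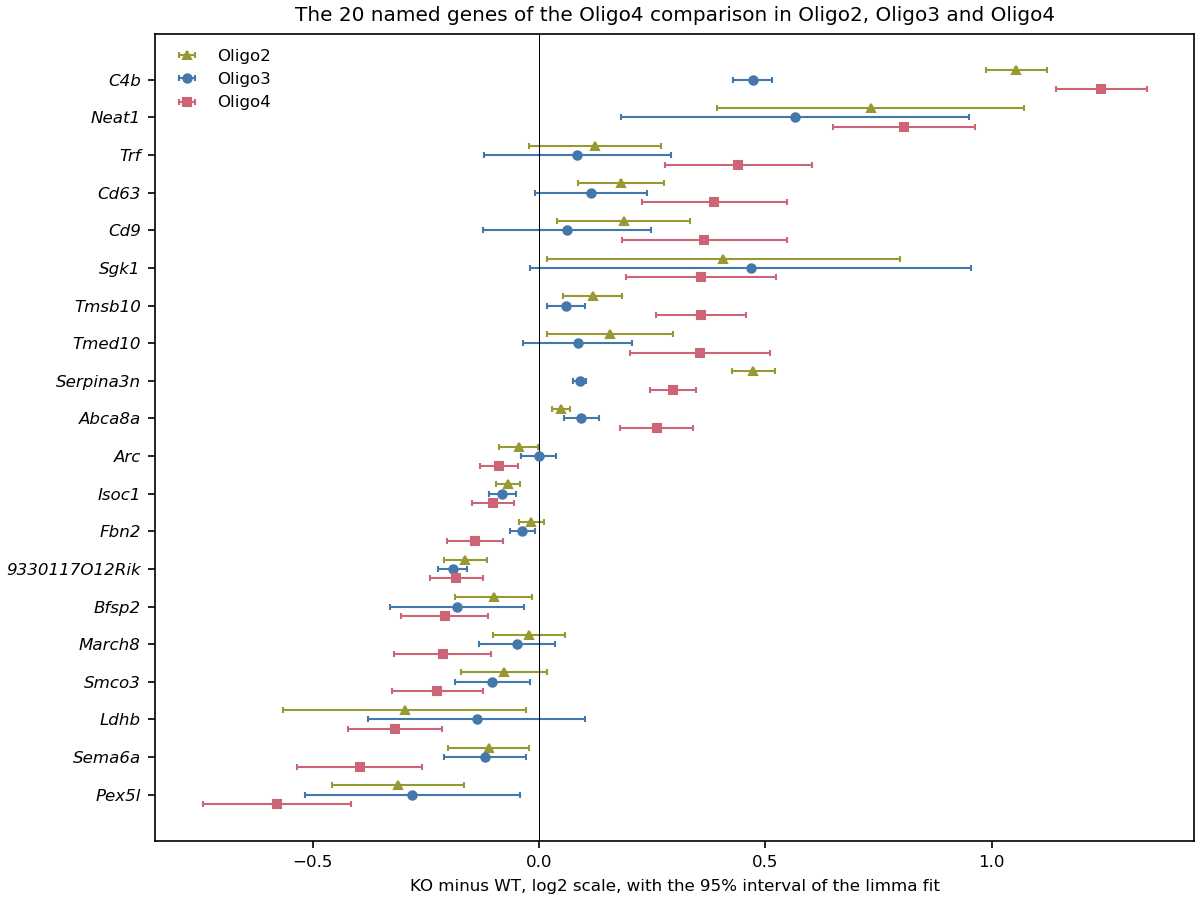
KO minus WT difference (log2 scale, horizontal axis) with the 95% interval of the limma fit for the 10 genes with the highest and the 10 with the lowest called differences of Oligo4, in Oligo2 (triangles), Oligo3 (circles) and Oligo4 (squares). For C4b the values are 1.05, 0.47 and 1.24, and for Trf 0.12, 0.08 and 0.44.

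The hippocampus and the cortex were compared as the difference between the genotype effects of both tissues within each mouse. No gene passed (0% of 9381), 474 (5.05%) reached an unadjusted p under 0.05 and the smallest adjusted p was 0.934 (limma). Bcas1, a marker of early myelinating cells, had an effect of -0.15 and -0.25 in the hippocampus batches and 0.26 and 0.12 in the cortex batches, a difference of -0.39 ± 0.04 (adjusted p = 0.934). Phgdh, the first enzyme of serine synthesis, showed the same order, at -0.36 ± 0.05, and Ptgds was at -0.37 ± 0.28. Rtn4, Pura and Klf13 were the largest in the other direction, at 0.62 ± 1.19, 0.54 ± 0.19 and 0.50 ± 0.15, of which the first has an error larger than its value. In those 3 genes the cortex library of KO mouse 3, with 47 cells, was the lowest of the 8, at 3.08, 1.28 and 1.69. C4b differed by 1.58 and 0.96 in the hippocampus and by 1.14 and 1.29 in the cortex batches, and the effect in hippocampus minus that in cortex was 0.06 ± 0.18 (adjusted p = 0.99).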

How the data were processed

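Single cells of 8 libraries were sequenced on the 10x Genomics platform. According to the submitters' processing notes the authors used Cell Ranger 5.0.0 and the mm10 build, and per the study's methods they kept mature oligodendrocytes, filtered cells on UMIs and mitochondrial share and normalized with scran. The deposited matrix holds log2 of the normalized UMI count plus 1 for 18833 genes and 12581 cells, and a deposited cell table gives UMI counts, detected genes, the percent of mitochondrial counts, size factors, batch and clusters. UMI counts were recovered from log2 values and size factors, and all 42420937 values above 0 came out whole within 0.001. The batch with the cortex of mice 4 and 6 was of lower quality per the study's methods, and results without it are given. The lowest total was 5039 UMIs per cell. Cells were sorted with a scatter gate against doublets by the authors, and no doublet caller was run here. Across libraries 21 barcodes were shared, 1 of them in Oligo4. The table holds oligodendrocytes only, so no cell type that lacks C4b could be set beside its shares.

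Library means over Oligo4 cells were averaged per mouse, so that hippocampus and cortex weigh alike. The detection filter kept genes whose mean share of cells with a UMI over the 8 libraries was 5% or more. They were tested with limma 3.58.1 (eBayes with trend) in R 4.3.3 on 2 against 2 mice with the pair as a block, and adjusted by Benjamini-Hochberg at 0.05. Differences in log2 values plus 1 understate the change of low genes. Pairs share batches by the batch column, and across genes the deviations of the mice of a pair had a correlation of 0.563; limma's estimate between libraries of a mouse was -0.152. Labels name separate mice. The fits were tested on simulated data with known changes, in which limma made clearly more false calls than its threshold allows. edgeR 4.0.16 on summed UMIs was an alternative, and 3 alternatives (robust prior, without finer cluster 2, without C4b cells) were chosen after seeing the data. Python 3.11.15 was used for tables and exact tests. Shares carry 95% Clopper-Pearson intervals, and a count of 0 the share that 3 cells would make.

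Members and gene lists were chosen with earlier results of these data known. Named genes were the 10 highest and 10 lowest called differences, of each list the called members and the 2 largest differences, Csf1r, C4b and Serpina3n, and for the other comparisons the largest differences with separate mouse values. Promoter windows came from RefSeq on GRCm38.p6. Single genes can share reads with close copies (C4b with C4a, globins), which was not resolved here.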

Additional observations from a re-analysis of the deposited data

Results flagged for a closer look

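In 7 of 120 groups of 4 libraries checked, 1 library stood apart from the other 3. Chance alone gives about 1 in 20 for values that vary continuously, and that rate does not hold where the other 3 are at 0. Such were the flags of Socs3, C1qa, C1qb and the share in finer cluster 2. Among WT libraries, Socs3 was at 0.0143 in the hippocampus of mouse 4 and at 0 in the others. Hsd17b7 was lowest, at 0.162, and Rtn4 highest, at 4.04, in the cortex of mouse 1, the library with the fewest Oligo4 cells. Hbb-bs was lowest, at 0.0847, in the cortex of mouse 4. Among KO libraries, C1qa (0.00998) and C1qb (0.00604) were above 0 only in the hippocampus of mouse 6. The share of Oligo4 cells in finer cluster 2 was 0.8% in the WT hippocampus of mouse 4 and 0% in the other WT libraries.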

How the results depend on the processing

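The 58 calls (45 higher, 13 lower) depended on the fit more than their directions did. Without the replicate block for the pair of mice, 9 genes were higher and 0 lower. Leaving out 1 mouse without a block gave 20 higher and 10 lower without WT mouse 1, 23 and 5 without KO mouse 3, 23 and 7 without WT mouse 4, and 21 and 8 without KO mouse 6. With no filter 140 and 78 genes passed, with a 10% filter 6 were lower, with all cells of a mouse weighted equally 81 and 41, in hippocampus alone 24 and 8, and in cortex alone 6 and 0. Without batch 3 the counts were 2 and 0 and without batch 6, 12 and 3. edgeR with TMM factors gave 78 and 23, and 23 and 2 without the block. Without double-positive cells 4 and 0 passed, without finer cluster 2, 26 were higher, and without C4b cells 6 and 7. Against Oligo2 and Oligo3, where 0 passed, a pseudocount of 0.1 gave 24 and 4 and one of 1 gave 14 and 3, and without batch 5, 1 was higher; C4b was that gene. Thinned to 5000 UMIs, the C4b share differed by 45.4 and the Serpina3n share by 13.6 percentage points. The share of cells with both differed by 20.9 to 21.4 points when 1 mouse was left out. Sgk1 turned to -0.11 without KO mouse 6, Bfsp2 to 0.10 without WT mouse 1, and Anxa2 to -0.0044 without C4b cells. Malat1 turned to 0.00284 without KO mouse 6, 0.0231 without finer cluster 2 and 0.076 without C4b cells. The cause of these changes was not tested. Without finer cluster 2, without C4b cells, with 1 mouse left out, thinned, with cells weighted equally or without batch 5, limma estimated no spread particular to single genes. Those p-values rest on the pooled spread alone, and those of the main fit rest on it largely. Fits with 1 mouse in a group assume that it varies like the others. Precision is limited by 2 mice per genotype and by 38 and 47 cells in the smallest libraries.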

Other observations

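Some called genes outside the lists, picked out after their values were seen, encode secreted or extracellular proteins. Masp1, a protease of the lectin pathway of complement, was 0.20 higher in KO mice (limma adjusted p = 4.55e-04), in each of 4 batches and in all 4 fits. Htra1, a secreted serine protease, was 0.23 higher (adjusted p = 0.00508), and Sparc, a matrix glycoprotein, 0.20 higher (adjusted p = 0.0101). Adamtsl1, a matrix protein related to ADAMTS proteases, was 0.25 higher (adjusted p = 3.62e-04). Masp1, Htra1 and Sparc were also called in Oligo2, from the same mice, and none of the 3 in Oligo3. Aldh1l2, the mitochondrial enzyme of folate metabolism, was 0.12 higher (adjusted p = 1.52e-04). Tmem176a and Tmem176b, neighbouring members of a family of membrane proteins, were 0.10 and 0.17 higher (adjusted p = 5.01e-04 and 3.49e-05). Aldh1l2 and Tmem176a passed the detection filter only through the KO libraries, which favours their higher values.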
